A study of Mus musculus with 16 samples.

Results

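Sulfate has to be activated before a cell can use it, and 8 genes of that route were followed across 4 groups of mouse embryonic stem (ES) cell cultures. They were chosen by gene symbol, as the genes that make and carry the activated sulfate together with those that sulfate tyrosine or switch on sulfatases. Of the 8, 7 had a probe on the array (10 probes of 25697), and 5 genes with 8 probes were bright enough to be tested among 13377 tested probes. The PAPS transporter Slc35b2 was not analysed here, because no probe carried its symbol.

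In background, a cell takes up sulfate, and the PAPS synthases join it to ATP to form PAPS (3'-phosphoadenosine 5'-phosphosulfate), the sulfate donor of all sulfotransferases. PAPS is carried into the Golgi, where enzymes place its sulfate on heparan sulfate, other sugar chains and tyrosine residues of proteins. Chlorate resembles sulfate and blocks the opening reaction of the PAPS synthases, so it lowers sulfation in general, and ES cells need sulfated heparan sulfate to respond to fibroblast growth factors (FGFs).

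The first group was wild-type cells of CCE, an established mouse ES cell line, given 20 mM sodium chlorate for 24 h. A further group of wild-type CCE cells received 5 µM SU5402, an inhibitor of the FGF receptors, for 24 h. Ndst1/2-/- ES cells lack both of the main N-deacetylase/N-sulfotransferases that begin heparan sulfate sulfation, and they were left untreated. The control was untreated wild-type CCE cells, which served every comparison with a control. All were grown on gelatin in serum with LIF, a cytokine that keeps ES cells undifferentiated. Neither the parental line of the Ndst1/2-/- cells nor the number of clones was given, so the deletion and any other difference between the lines cannot be told apart. No probe carried the symbol Ndst1 or Ndst2, so the deleted genes were not analysed here.

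Each group had 3 cultures, and culture 3 was measured on 2 arrays that were averaged, giving 12 cultures from 16 arrays. The arrays detected 12022 to 12821 probes each. Mean deposited intensity split them into set A (culture 1 and the first array of culture 3 of every group, 412 to 454) and set B (culture 2 and the second array of culture 3, 369 to 400), so each set held every group equally. All 6 ES cell markers were detected on every array, with summed linear levels of 55912 to 60841 in chlorate cultures, 56013 to 58547 in SU5402 cultures, 54688 to 56918 in Ndst1/2-/- cultures and 52351 to 53267 in untreated cultures. Of the 7 fibroblast markers on the array, Col1a2, Col3a1, Postn and Pdgfrb were detected on none, and the summed level was 249 to 263 with chlorate, 238 to 275 with SU5402, 199 to 209 in Ndst1/2-/- cultures and 281 to 316 in untreated cultures. The summed level of 4 trophoblast markers was 149 to 157 with chlorate, 152 to 160 with SU5402, 88.6 to 98.9 in Ndst1/2-/- cultures, where none was detected, and 135 to 144 in untreated cultures. For 5 primitive endoderm markers it was 145 to 164 with chlorate, 152 to 164 with SU5402, 157 to 166 in Ndst1/2-/- cultures and 171 to 182 in untreated cultures, and Sox17 and Foxa2 were detected on no array. The part of these shifts in the results below was not tested.

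The PAPS synthase Papss1 was higher after chlorate and after SU5402, and it was the only tested member that passed the test against untreated cells in either treatment. Chlorate raised it 1.30-fold at probe 1 and 1.41-fold at probe 2, and SU5402 raised it 1.21-fold at probe 1 and 1.39-fold at probe 2. In Ndst1/2-/- cells it was not called against untreated cells. The other PAPS synthase, Papss2, was below detection on all 16 arrays. Both enzymes are bifunctional: one end makes adenosine phosphosulfate from sulfate and ATP, which is the reaction chlorate inhibits, and the other end adds the phosphate that completes PAPS.

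The start regions of the 2 synthase genes are shown because one gene was detected in these cells and the other was not. Both windows run from 250 bases before to 50 bases after the start of the RefSeq transcript (GRCm38.p6), 5' to 3' on the plus strand, with CpG pairs in capitals. Each gene has 2 such windows, and the one listed first is printed, chr3:131564518-131564817 for Papss1 and chr19:32595465-32595764 for Papss2.
Papss1: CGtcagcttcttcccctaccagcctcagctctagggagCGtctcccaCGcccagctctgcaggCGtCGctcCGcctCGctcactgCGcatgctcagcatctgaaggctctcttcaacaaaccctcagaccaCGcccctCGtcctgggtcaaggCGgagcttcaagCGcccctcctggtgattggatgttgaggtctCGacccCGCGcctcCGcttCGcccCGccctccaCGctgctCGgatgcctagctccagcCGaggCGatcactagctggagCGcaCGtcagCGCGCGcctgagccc
Papss2: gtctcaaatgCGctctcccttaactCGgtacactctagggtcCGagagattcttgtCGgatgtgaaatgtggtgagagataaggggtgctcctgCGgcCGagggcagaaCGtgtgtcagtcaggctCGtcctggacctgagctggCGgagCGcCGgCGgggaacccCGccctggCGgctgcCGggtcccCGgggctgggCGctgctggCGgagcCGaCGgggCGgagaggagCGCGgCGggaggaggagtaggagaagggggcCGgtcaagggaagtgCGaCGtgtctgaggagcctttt
Each of the 2 windows held 27 CpG pairs and 66.3% G or C, and 15.5% of the 32851 windows of this length in the table held at least as many CpG pairs (the median was 7). Searched on both strands, the Sp/KLF box GGGCGG had 1 match in the Papss1 window and 2 in the Papss2 window, and 35.7% of all windows held it. The CCAAT box, CCAAT, had 1 match in the Papss1 window and 0 in the Papss2 window, and 37.4% of all windows held it. The ETS core CCGGAA (14.9% of windows), the TATA box TATAAA (13.6%) and the E-box CACGTG (7.15%) were in neither window. The second windows, not printed, held 6 CpG pairs and 47.3% G or C for Papss1 and 1 CpG pair and 44.3% for Papss2. There the CCAAT box had 1 match for Papss1 and 2 for Papss2, so it did not set the genes apart. A match describes the sequence only.

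At probe 1 of Papss1 (ILMN_2859978), the log2 normalized intensity was 8.43, 8.33 and 8.41 in the 3 chlorate cultures, 8.30, 8.24 and 8.32 in the SU5402 cultures, 7.94, 7.89 and 7.86 in the Ndst1/2-/- cultures, and 8.03, 7.98 and 8.02 in the untreated cultures. All chlorate cultures were the brightest, all SU5402 cultures came next, and untreated cultures lay above all Ndst1/2-/- cultures, so that no groups overlapped at this probe. The group means were 8.39 ± 0.05 with chlorate, 8.29 ± 0.04 with SU5402, 7.89 ± 0.04 in Ndst1/2-/- cells and 8.01 ± 0.02 in untreated cells (SD, n = 3 each). Because the arrays measured bulk RNA, a change in the share of cells that hold the transcript and a change in RNA per cell cannot be told apart.

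Chlorate cultures exceeded untreated cultures at probe 1 by 0.38 ± 0.05 log2 units (SE; 95% interval 0.26 to 0.50; limma with Benjamini-Hochberg adjusted p = 0.000196). SU5402 cultures exceeded them by 0.27 ± 0.05 (0.16 to 0.39; limma adjusted p = 0.00275). Both comparisons used the same 3 untreated cultures and so are not independent of each other. Among all tested probes, 28.4% were called after chlorate (14.2% higher) and 23.5% after SU5402 (11.9% higher), against 2 of 8 member probes, both of Papss1 and both higher, in each comparison. When arrays were scaled to a common median and not quantile normalized, 37.7% of the chlorate calls over all probes were higher, against 50.1% here, and Papss1 probe 1 was 0.31 higher with chlorate (limma adjusted p = 0.0101). Within set A the chlorate difference at probe 1 was 0.41 (limma adjusted p = 0.00742) and within set B 0.35 (0.0244). The SU5402 difference was 0.32 within set A (limma adjusted p = 0.0264) and 0.24 within set B, where it did not pass (0.108).

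Probe 2 of Papss1 (ILMN_2594477) varied more between cultures of a group. It read 6.54, 6.35 and 6.36 in chlorate cultures, 6.61, 6.23 and 6.33 in SU5402 cultures, 5.84, 6.24 and 6.0 in Ndst1/2-/- cultures, and 6.14, 5.80 and 5.82 in untreated cultures. Every chlorate and SU5402 culture was brighter than every untreated culture, whereas Ndst1/2-/- and untreated cultures overlapped. The chlorate difference was 0.50 ± 0.13 (0.22 to 0.77; limma adjusted p = 0.0103) and the SU5402 difference 0.47 ± 0.13 (0.20 to 0.74; limma adjusted p = 0.0171). Within set A these were 0.46 (limma adjusted p = 0.0431) and 0.42 (0.0763), and within set B 0.56 (0.00593) and 0.55 (0.00866). At this probe the SU5402 call, but not the chlorate call, rested on single cultures: limma's adjusted p became 0.0638 without untreated culture 2, 0.0632 without untreated culture 3 and 0.0697 without SU5402 culture 1.

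**Figure D1:**
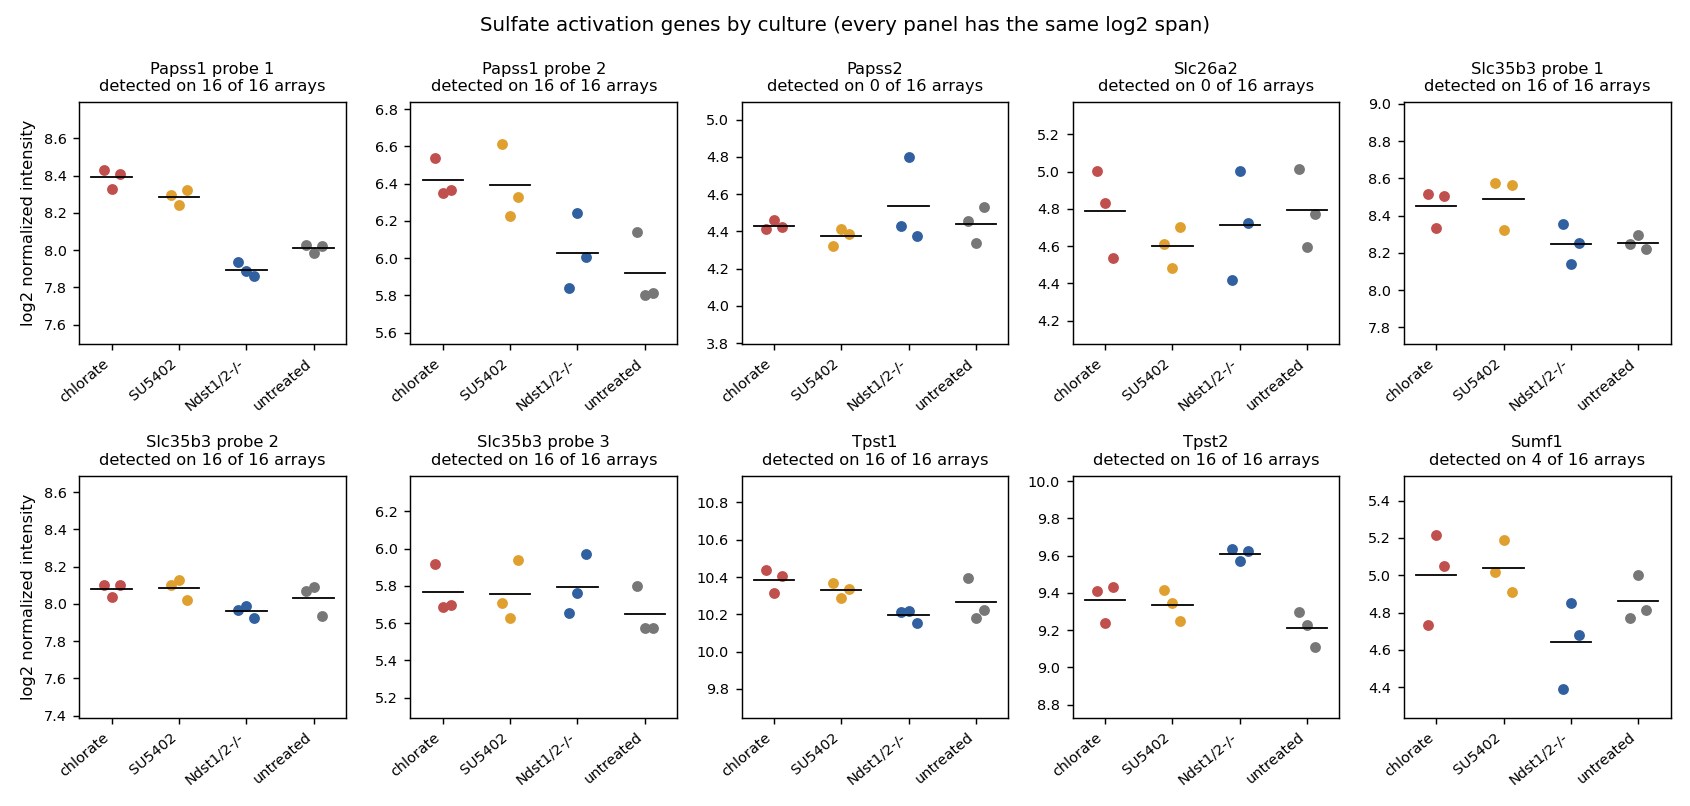
Log2 normalized intensity of the 10 member probes, 1 panel each, for chlorate, SU5402, Ndst1/2-/- and untreated cultures from left to right; each point is a culture, each bar the mean of 3, and every panel spans the same number of log2 units around its own centre. Papss1 probe 1 runs from 8.39 with chlorate to 7.89 in Ndst1/2-/- cells without overlap between groups, and Tpst2 is highest in the 3 Ndst1/2-/- cultures.

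The direct comparison of the treatments left no member called. At Papss1 probe 1 the SU5402 minus chlorate difference was -0.10 log2 units (95% interval -0.22 to 0.01; limma with Benjamini-Hochberg adjusted p = 0.361), although the 3 SU5402 cultures all lay under the 3 chlorate cultures. At probe 2 the difference was -0.03 (-0.30 to 0.25; limma adjusted p = 0.947). Over all probes 2.54% were called in this comparison and 22.1% did not overlap between the groups, so a single probe without overlap is near what other probes show. For the other tested member probes the SU5402 minus chlorate difference lay between -0.06 and 0.04, and a difference that misses the threshold does not show that the treatments act alike.

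Ndst1/2-/- cells had less Papss1 signal than either treated group. Probe 1 differed by -0.50 ± 0.05 from chlorate cultures (-0.61 to -0.38; limma with Benjamini-Hochberg adjusted p = 4.86e-06) and by -0.39 ± 0.05 from SU5402 cultures (-0.51 to -0.28; limma adjusted p = 4.04e-05). Probe 2 differed by -0.39 ± 0.13 from chlorate cultures (limma adjusted p = 0.0179) and by -0.36 ± 0.13 from SU5402 cultures (0.0257). Leaving out Ndst1/2-/- culture 1 ended both probe 2 calls (limma adjusted p = 0.0801 against chlorate and 0.11 against SU5402). The first also ended without chlorate culture 1 (0.0686), and the second without Ndst1/2-/- culture 3 (0.0635), without SU5402 culture 1 (0.116) or with no filter (0.0505). Within set B alone neither probe 2 difference was called, at -0.15 against chlorate (limma adjusted p = 0.234) and -0.14 against SU5402 (0.261).

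Against untreated cells, Ndst1/2-/- cells gave a Papss1 difference of -0.12 ± 0.05 at probe 1 (-0.23 to -0.00; limma with Benjamini-Hochberg adjusted p = 0.0734), not called although the cultures did not overlap. In this comparison 62.7% of all tested probes were called and 67.0% did not overlap, so most tested probes differed between these 2 lines. Probe 2 pointed the other way, at 0.11 ± 0.13 (-0.17 to 0.38; limma adjusted p = 0.477), and its own value changed sign between the array sets. In set A it was -0.15 (limma adjusted p = 0.345), and in set B it was 0.41 (0.00641). Papss1 in Ndst1/2-/- cells therefore has no direction on which the 2 probes and the 2 sets of arrays hold together.

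Papss2 (ILMN_2638349) gave a deposited intensity of 48.2 to 52.2 with chlorate, 46.6 to 50.03 with SU5402, 46.0 to 57.6 in Ndst1/2-/- cells and 45.5 to 55.1 in untreated cells. Its detection p-value, the chance that a negative control bead is as bright, was 0.0764 to 0.678 over the 16 arrays, where 0.01 was the limit for detection. Papss2 was thus not above background in any group, and a level or a fold change cannot be given. When the filter on dim probes was dropped, its differences from untreated cells were -0.01 with chlorate, -0.07 with SU5402 and 0.09 in Ndst1/2-/- cells, none of them called.

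Slc26a2, a transporter that brings sulfate into the cell and that is best known for its role in cartilage, was also undetected on all 16 arrays. The deposited intensity of its probe (ILMN_1224606) was 50.4 to 69.2 with chlorate, 49.6 to 62.0 with SU5402, 51.0 to 63.5 in Ndst1/2-/- cells and 54.7 to 69.7 in untreated cells. Detection p-values were between 0.0141 and 0.455, so Slc26a2 RNA was not detectable at the sensitivity of these arrays in any group. Without the filter its differences from untreated cells were -0.00 with chlorate, -0.20 with SU5402 and -0.08 in Ndst1/2-/- cells.

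**Figure D2:**
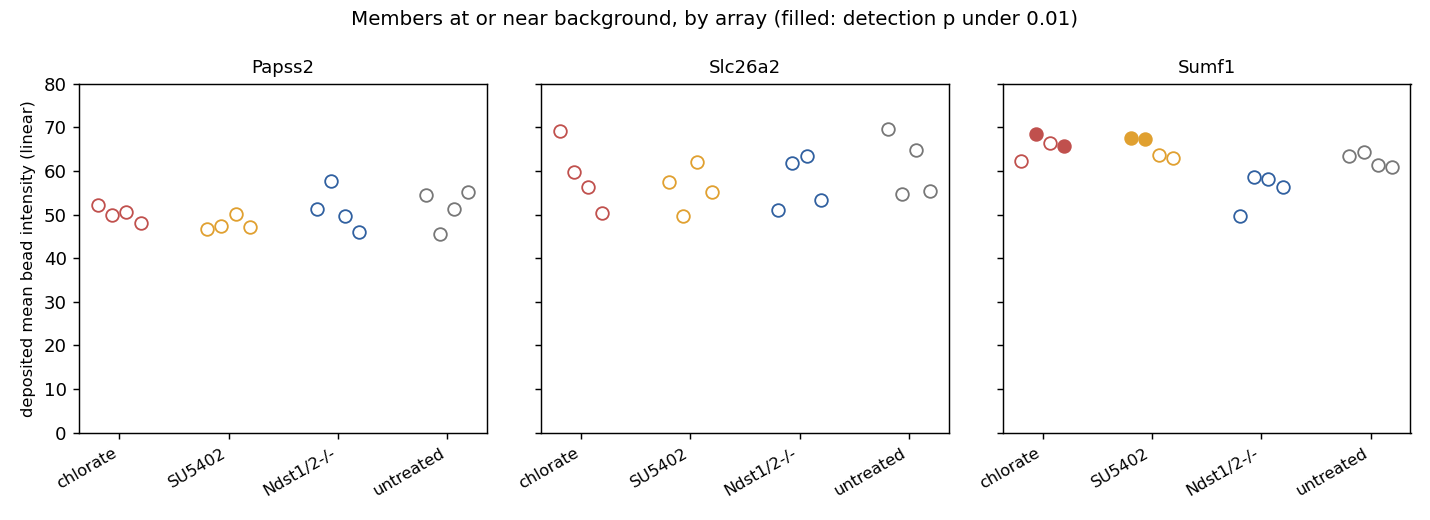
Deposited linear bead intensity of Papss2, Slc26a2 and Sumf1 on each of the 16 arrays, by group with chlorate at the left and untreated cells at the right; a filled point has a detection p under 0.01. Papss2 and Slc26a2 have no filled point, and Sumf1 has 4, of which 2 are chlorate and 2 SU5402 arrays.

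Slc35b3, a PAPS transporter of the Golgi membrane, had 3 tested probes, and against untreated cells none was called in any group. Its brightest probe (ILMN_1221624) read 8.52, 8.34 and 8.51 with chlorate, 8.58, 8.32 and 8.57 with SU5402, 8.35, 8.14 and 8.25 in Ndst1/2-/- cells, and 8.25, 8.29 and 8.22 in untreated cells. Every culture of both treatments lay above every untreated culture, while the Ndst1/2-/- cultures overlapped the untreated ones. The differences from untreated cells were 0.20 ± 0.08 with chlorate (0.02 to 0.38; limma with Benjamini-Hochberg adjusted p = 0.0927), 0.23 ± 0.08 with SU5402 (0.05 to 0.41; 0.0586) and -0.00 ± 0.08 in Ndst1/2-/- cells (-0.18 to 0.18; 0.975). Counting this probe, 3 of 8 member probes did not overlap with untreated cells after chlorate and 3 of 8 after SU5402, beside 41.9% and 38.6% of all tested probes.

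The array sets differed at this probe. Within set A both treatments passed, with 0.29 for chlorate (limma with Benjamini-Hochberg adjusted p = 0.0366) and 0.35 for SU5402 (0.0221), and within set B neither did, with 0.15 (0.378) and 0.17 (0.348). Without SU5402 culture 2 the SU5402 difference passed over all arrays (limma adjusted p = 0.0171). Against SU5402 cultures, Ndst1/2-/- cells were called lower, by a log2 difference of -0.24 ± 0.08 (limma adjusted p = 0.0256), with overlapping cultures. That call ended without Ndst1/2-/- culture 2 (0.106) or 3 (0.0548), without SU5402 culture 1 (0.094) or 3 (0.0925), and with median scaling, at -0.16 (0.211). Against chlorate cultures the difference was -0.20 ± 0.08 and was not called (limma adjusted p = 0.0512). It passed in 8 of 23 other settings, set A alone among them (0.0426), and with median scaling it was -0.08 (0.55).

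The other Slc35b3 probes were called in no comparison. Probe 2 (ILMN_2948971) averaged 8.08 with chlorate, 8.08 with SU5402, 7.96 in Ndst1/2-/- cells and 8.03 in untreated cells, and its differences from untreated cells were 0.05 with chlorate, 0.05 with SU5402 and -0.07 in Ndst1/2-/- cells. Probe 3 (ILMN_1246713) averaged 5.77 with chlorate, 5.76 with SU5402, 5.80 in Ndst1/2-/- cells and 5.65 in untreated cells, and its differences were 0.12 with chlorate, 0.11 with SU5402 and 0.15 in Ndst1/2-/- cells. A moderated F-test over all 4 groups called probe 1 (limma with Benjamini-Hochberg adjusted p = 0.0315) and neither probe 2 (0.221) nor probe 3 (0.584), so the 3 probes of the gene did not give the same answer.

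Of the enzymes that sulfate tyrosine residues of secreted and membrane proteins, Tpst2 was higher in Ndst1/2-/- cells and Tpst1 was not called against untreated cells in any group. Tpst2 (ILMN_2843782) read 9.41, 9.24 and 9.43 with chlorate, 9.42, 9.35 and 9.25 with SU5402, 9.64, 9.57 and 9.62 in Ndst1/2-/- cells, and 9.30, 9.23 and 9.11 in untreated cells. The 3 Ndst1/2-/- cultures were brighter than all 9 others, and both treated groups overlapped the untreated cultures. Ndst1/2-/- cells exceeded untreated cells by 0.40 ± 0.07, which is 1.32-fold (0.24 to 0.56; limma with Benjamini-Hochberg adjusted p = 0.000337). This was the only member probe of 8 called in that comparison, where 62.7% of all tested probes were called and 30.4% were called higher.

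The Tpst2 difference was 0.44 within set A (limma with Benjamini-Hochberg adjusted p = 0.00275) and 0.42 within set B (0.00929), and it stayed called whichever culture was left out. Chlorate and SU5402 differed from untreated cells by 0.15 ± 0.07 (-0.01 to 0.30; limma adjusted p = 0.149) and 0.13 ± 0.07 (-0.03 to 0.28; 0.240). Ndst1/2-/- cells also exceeded chlorate cultures, by 0.25 ± 0.07 (limma adjusted p = 0.00921), and SU5402 cultures, by 0.27 ± 0.07 (0.00552). Within set B alone the difference from chlorate did not pass (0.102). The Tpst2 increase was thus measured against each of the other groups.

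Tpst1 (ILMN_1230765) read 10.44, 10.32 and 10.40 with chlorate, 10.37, 10.29 and 10.34 with SU5402, 10.21, 10.22 and 10.16 in Ndst1/2-/- cells, and 10.40, 10.18 and 10.22 in untreated cells. Untreated culture 1 stood near the chlorate cultures and the other untreated cultures near the Ndst1/2-/- ones. The differences from untreated cells were 0.12 ± 0.07 with chlorate (-0.02 to 0.26), 0.06 ± 0.07 with SU5402 (-0.08 to 0.21) and -0.07 ± 0.07 in Ndst1/2-/- cells (-0.21 to 0.07). Leaving out untreated culture 1 brought the chlorate difference past the threshold (limma with Benjamini-Hochberg adjusted p = 0.0476). Ndst1/2-/- cells were lower than chlorate cultures by a log2 difference of -0.19 ± 0.07 (limma adjusted p = 0.0238), a call that ended with median scaling (-0.05; 0.714), within set B alone (-0.15; 0.17) and without chlorate culture 1 (0.0807), chlorate culture 3 (0.0648) or Ndst1/2-/- culture 3 (0.0766).

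Sumf1, the enzyme that makes the formylglycine needed by every sulfatase, acts on the removal of sulfate rather than its addition. Its probe (ILMN_2632276) was detected on 2 of 4 chlorate arrays, 2 of 4 SU5402 arrays, 0 of 4 Ndst1/2-/- arrays and 0 of 4 untreated arrays, and its deposited intensity was 62.2 to 68.6 with chlorate, 62.9 to 67.5 with SU5402, 49.7 to 58.7 in Ndst1/2-/- cells and 60.9 to 64.4 in untreated cells. Sumf1 was therefore at the edge of detection throughout. Its differences from untreated cells were 0.14 ± 0.14 with chlorate, 0.17 ± 0.14 with SU5402 and -0.22 ± 0.14 in Ndst1/2-/- cells, none called.

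Sumf1 passed the filter on dim probes only through chlorate and SU5402 cultures, the groups where it was brighter, so its calls between Ndst1/2-/- cells and these groups are not read as results. Ndst1/2-/- cells were called lower than chlorate cultures (limma with Benjamini-Hochberg adjusted p = 0.0371) and than SU5402 cultures (0.0234). No fold is given, because the lowest detectable signal of the Ndst1/2-/- arrays was above the mean of the brighter group. Without the filter the call against chlorate ended (limma adjusted p = 0.072), and with the authors' processed values neither call held (0.625 against chlorate and 0.361 against SU5402). The call against chlorate also ended without chlorate culture 2 (0.156) or 3 (0.0955) and without Ndst1/2-/- culture 1 (0.164) or 3 (0.0616). The call against SU5402 ended without Ndst1/2-/- culture 1 (0.109) or SU5402 culture 2 (0.091).

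**Figure D3:**
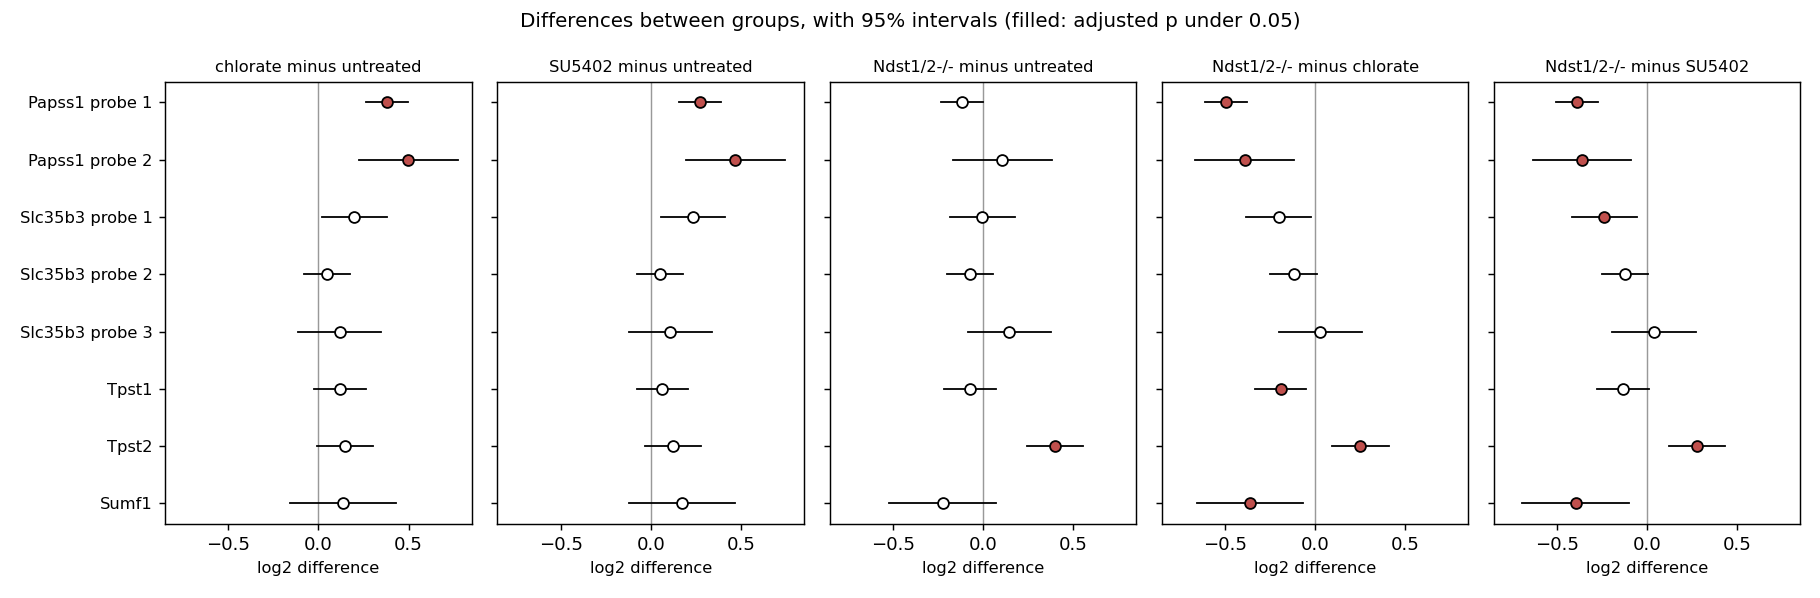
Log2 differences of the 8 tested member probes in 5 comparisons, with 95% intervals from the limma fit; filled points have an adjusted p under 0.05. Both Papss1 probes are filled and to the right after chlorate and SU5402, and only Tpst2 is filled for Ndst1/2-/- minus untreated.

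Over the 8 tested probes together, the median difference from untreated cells was 0.14 with chlorate, 0.15 with SU5402 and -0.04 in Ndst1/2-/- cells, beside -0.01, -0.01 and 0.00 over all tested probes. Ndst1/2-/- cells were called against chlorate at 5 of 8 member probes, where 58.3% of all tested probes were called. Tpst2 was higher and both Papss1 probes, Tpst1 and Sumf1 were lower, where Sumf1 had been tested only through the treated cultures. With median scaling 60.0% of the calls over all probes in that comparison were higher, against 49.8% here. Against SU5402 the count was also 5 of 8, beside 57.9% of all probes, with Tpst2 higher and both Papss1 probes, Slc35b3 probe 1 and Sumf1 lower. With no filter the count was 4 in each of these comparisons. The F-test called 4 of 8 member probes, beside 69.0% of all probes: both of Papss1 (adjusted p from limma after Benjamini-Hochberg 9.47e-06 at probe 1 and 0.00602 at probe 2), Slc35b3 probe 1 and Tpst2 (0.00202). Tpst1 (0.0847) and Sumf1 (0.0672) were not called by it. For Ndst1/2-/- against untreated cells, 1 of 8 member probes was called beside 62.7% of all tested probes. In the other comparisons between 2 groups the members were called about as often as all tested probes, and by the F-test less often. No result about the group of genes is read from these counts.

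Across the 12 cultures, Papss1 probe 1 followed Tpst1 (Pearson r = 0.823), Slc35b3 probe 1 (0.806) and Papss1 probe 2 (0.771). With Tpst2 the r was -0.336 for Papss1 probe 1 and 0.059 for Papss1 probe 2. These are descriptions over 12 cultures that fall into 4 groups, so they carry no p-value. The genes with the pattern most like Papss1 probe 1 were Tmem254a (0.984), Cidea (0.983) and Dkk3 (0.980). For Papss1 probe 2 they were Urgcp (0.894), Slc35a1 (0.894) and Dram2 (0.890). For Tpst2 they were Manea (0.972), Fgf4 (0.951) and Osbpl9 (0.950), and for Slc35b3 probe 1 Dusp16 (0.903), Ube4b (0.895) and Arid3b (0.893).

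Of the other genes of sulfate supply, the sulfate transporter Slc13a4 was called in all 3 comparisons with untreated cells. Slc26a6, the other tested gene of 5 uptake genes, was called in none. Over all tested probes 28.4% were called with chlorate, 23.5% with SU5402 and 62.7% in Ndst1/2-/- cells. Slc13a4 read 6.59, 6.29 and 6.57 with chlorate, 6.18, 6.32 and 6.36 with SU5402, 5.27, 5.27 and 5.29 in Ndst1/2-/- cells, and 5.81, 5.99 and 5.68 in untreated cells. It was higher after both treatments, by 0.66 ± 0.09 with chlorate (limma with Benjamini-Hochberg adjusted p = 0.000185) and 0.46 ± 0.09 with SU5402 (0.00323), and lower in Ndst1/2-/- cells, with a log2 difference of -0.55 ± 0.09 (0.000185). Papss1 probe 1 had the same order of the 4 groups, although its difference between Ndst1/2-/- and untreated cells was not called.

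Cells also make sulfate from the sulfur amino acids, and 11 genes of that route were tested. In Ndst1/2-/- cells 5 were higher and 3 lower, beside 62.7% of all tested probes called, and 7 of the 8 stayed called whichever culture was left out. Cth, which makes cysteine from cystathionine, had the greatest change of them, at 1.92 ± 0.08 (limma with Benjamini-Hochberg adjusted p = 6.64e-10), and Got1, a cytosolic aminotransferase, was 1.12 higher. Tst, a sulfurtransferase, and Gphn, which acts in molybdenum cofactor synthesis, were lower there, with log2 differences of -0.84 and -0.59. After chlorate 1 was higher and 3 were lower, and after SU5402 1 was higher and 1 lower, beside 28.4% and 23.5% of all tested probes called. In both treatments the gene that was higher was Cdo1, which oxidizes cysteine, at 0.65 ± 0.08 with chlorate and 0.50 ± 0.08 with SU5402, and these were the only calls of the list after treatment that held whichever culture was left out. Within array set B alone Cdo1 was not called after SU5402. Cdo1 was also higher in Ndst1/2-/- cells, at 0.42 (limma with Benjamini-Hochberg adjusted p = 0.000526). The list medians were 0.03 with chlorate, -0.06 with SU5402 and 0.16 in Ndst1/2-/- cells.

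PAP, the product left when PAPS gives up its sulfate, is removed by phosphatases. Of 3 tested genes of PAP removal, none was called after either treatment by limma (list medians 0.11 with chlorate and 0.16 with SU5402), and Bpnt1, a cytosolic PAP phosphatase, was 0.38 ± 0.07 higher in Ndst1/2-/- cells (limma with Benjamini-Hochberg adjusted p = 0.00051). The Golgi PAP phosphatase Bpnt2 gave 0.13 with chlorate, 0.25 with SU5402 and -0.08 in Ndst1/2-/- cells, not called in any. Of all tested probes 28.4% were called with chlorate, 23.5% with SU5402 and 62.7% in Ndst1/2-/- cells.

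Among enzymes that spend PAPS, 4 heparan sulfate sulfotransferases were tested. Hs6st1, which sulfates position 6 of glucosamine, was higher by 1.19 ± 0.07 with chlorate, 1.05 ± 0.07 with SU5402 and 1.43 ± 0.07 in Ndst1/2-/- cells (adjusted p from limma after Benjamini-Hochberg 1.02e-07, 4.85e-07 and 2.22e-09 for these groups), and it was the only one called after treatment. In Ndst1/2-/- cells Hs6st3 was also higher (0.39) and Hs3st1, detected on 0 of 4 Ndst1/2-/- arrays, was at least 1.39-fold lower. Hs2st1 was not called in any of the 3 comparisons, and the list medians were 0.06 with chlorate, 0.09 with SU5402 and 0.17 in Ndst1/2-/- cells. Of 2 tested cytosolic sulfotransferases, Sult4a1 was lower in all 3 groups, with log2 differences of -0.30 with chlorate, -0.32 with SU5402 and -0.95 in Ndst1/2-/- cells, and Sult2b1 was not called. Both treatment calls of Sult4a1 ended within array set B alone. Beside the calls of both lists, 28.4% of all tested probes were called with chlorate, 23.5% with SU5402 and 62.7% in Ndst1/2-/- cells.

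The 11 other Golgi sulfotransferases went both ways. Against untreated cells, 5 were higher and 3 lower with chlorate (median 0.21), 3 were higher and 2 lower with SU5402 (median 0.12), and 3 were higher and 8 lower in Ndst1/2-/- cells (median -0.34). Of all tested probes 28.4%, 23.5% and 62.7% were called in these comparisons. Whichever culture was left out, 7 of the 8 chlorate calls, 4 of the 5 SU5402 calls and 10 of the 11 Ndst1/2-/- calls held. Chst8, which sulfates N-acetylgalactosamine on glycoproteins, was higher by 0.67 with chlorate, 0.54 with SU5402 and 2.25 in Ndst1/2-/- cells. Chst15, a chondroitin sulfate sulfotransferase, was higher by 0.60 with chlorate and 0.57 with SU5402 and lower in Ndst1/2-/- cells, with a log2 difference of -0.59. Its chlorate call ended within array set A alone and its SU5402 call within set B alone. Chst3, a chondroitin 6-O-sulfotransferase, was detected on 0 of 4 untreated arrays, so it passed the filter on dim probes only through the other groups. Its signal was at least 6.48-fold higher in Ndst1/2-/- cells. Like the calls of Sumf1, those of Chst3 against untreated cells are not read as results, although they are among the higher calls counted above. Gal3st1, which makes sulfatide, was lower there with a log2 difference of -1.03, and Chst1 and Chst7 were at least 1.69-fold and 1.82-fold lower.

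Sulfate is taken off again by the sulfatases, of which 5 were tested together with Sumf2, a paralogue of Sumf1. Sumf2 was 0.59 ± 0.07 higher in Ndst1/2-/- cells (limma with Benjamini-Hochberg adjusted p = 1.15e-05) and 0.32 ± 0.07 higher with chlorate (0.00478), unlike Sumf1, which was not called in either. The extracellular heparan sulfate 6-O-endosulfatase Sulf1 was lower after both treatments, with log2 differences of -0.29 with chlorate and -0.38 with SU5402, and 0.45 higher in Ndst1/2-/- cells. In Ndst1/2-/- cells the lysosomal sulfatase Arsa was 0.87 higher and Ids, also lysosomal, fell with a log2 difference of -0.62. Over the 6 genes, 3 were higher and 1 lower with chlorate (median 0.19), 1 was higher and 1 lower with SU5402 (median 0.075), and 3 were higher and 1 lower in Ndst1/2-/- cells (median 0.34), beside 28.4%, 23.5% and 62.7% of all tested probes called. In each treatment 1 of the higher calls, Ids with chlorate and Sumf2 with SU5402, did not hold whichever culture was left out.

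The 9 other transporters of the Slc35 family, which carry nucleotide sugars or have unsettled substrates, served as neighbours of Slc35b3. Against untreated cells 1 was higher and 1 lower with chlorate (median -0.05), 1 was higher and 1 lower with SU5402 (median 0.02), and 1 was higher and 2 lower in Ndst1/2-/- cells (median -0.00). Over all tested probes 28.4% were called with chlorate, 23.5% with SU5402 and 62.7% in Ndst1/2-/- cells. The Ndst1/2-/- calls, Slc35c1 at 0.59, Slc35b1 at -0.47 and Slc35a4 at -0.40, held whichever culture was left out. After treatment that was so for Slc35a4 alone, at -0.29 with chlorate, and this call ended within array set B alone (-0.18; limma adjusted p = 0.231).

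**Figure D4:**
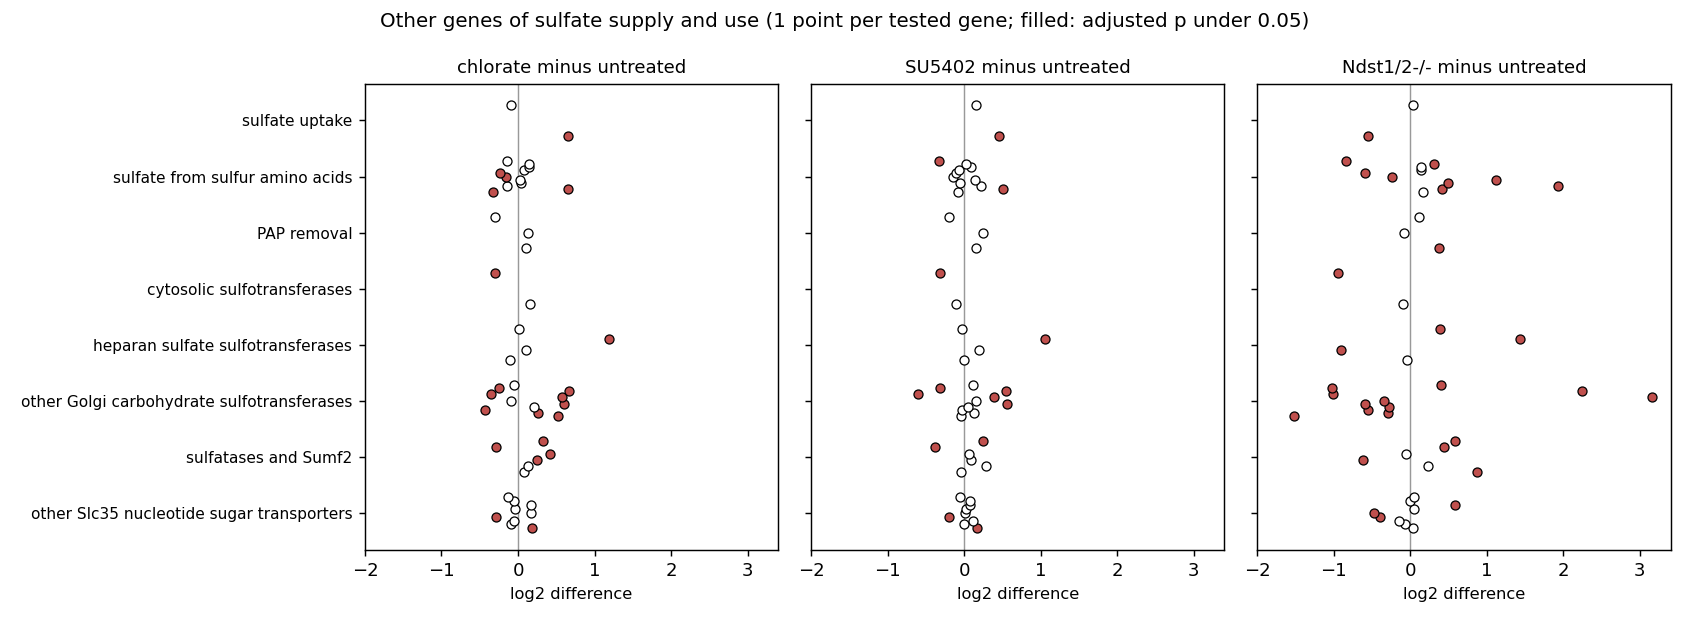
Log2 differences from untreated cells of the other tested genes of sulfate supply and use, 1 point per gene, in 8 lists down the page and for chlorate, SU5402 and Ndst1/2-/- cells from left to right; filled points have an adjusted p under 0.05, and genes undetected in a group are drawn at the fitted value. The widest spread is in the Ndst1/2-/- panel, where Chst8 lies at 2.25 and Cth at 1.92. Farther out is Chst3, drawn at a fitted 3.16, for which the text gives only a bound.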

How the data were processed

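The authors deposited the mean bead intensity of each probe on each array, not normalized, and a detection p-value against negative control beads, both per the file headers (25697 probes, 16 arrays). Per the submitters' processing notes BeadStudio made them; no version of it was given. A table of processed intensity that the authors also deposited, whose normalization the file headers do not state, served only as an alternative. Platform annotation gave 23978 probes 1 symbol, 1719 none and 0 several.

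Intensities were background-corrected (normexp with detection p-values), raised by an offset of 16, quantile normalized and log2 transformed (neqc, limma 3.58.1, R 4.3.3). The deposited intensity thus became log2 values whose fold changes understate those of dim probes. The 2 arrays of culture 3 were averaged, since they are 1 culture. The labels call cultures biological replicates and say no more on how they were grown, so p-values measure the spread among them. Tests covered probes detected (p-value averaged over a culture's arrays under 0.01) in 3 or more of the 12 cultures. One limma model of the 4 groups (8 residual and 4.37 prior degrees of freedom) gave all comparisons, with Benjamini-Hochberg adjustment over 13377 probes per comparison and calls at an adjusted p under 0.05. It was also run on simulated data with independent noise in each culture and changes in the chlorate group only. That simulation held no array set difference, so it does not show how the model handles one. The number of arrays limits the precision. Where a gene had several probes, the brightest is called probe 1.

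A probe undetected on all arrays of a group has only a bound there: the brighter group's mean is set against, on each array, the higher of the lowest detected signal and the probe's own, and no fold is given where that is under 1. All members are named. From each other list up to 4 called genes with the greatest change in each comparison could be named, and for each member probe called by the F-test the 3 most alike genes were. Members and lists were chosen with earlier results of these data known. Promoter windows are RefSeq's (GRCm38.p6), and 7 of the 8 genes had one. The labels do not say whether same-numbered cultures belong together, and the main model did not pair them. The numbers do follow the array sets, with culture 1 of every group in set A and culture 2 in set B. Alternatives covered background correction, scaling, offset, filter, the authors' values, the second array of culture 3, array sets, a replicate block, 2-group fits and each culture left out.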

Additional observations from a re-analysis of the deposited data

How the results depend on the processing

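Under 23 other settings, 12 of them leaving out 1 culture, the 48 differences of single member probes gave 1098 values: 1042 kept direction and side of the threshold or were called in neither setting, 38 lost a call, 18 gained one, and 0 were called in opposite directions. Of those called in neither, 44 changed sign. The calls of Papss1 after chlorate (both probes) and of Tpst2 in Ndst1/2-/- against untreated cells held in all of them. Of 1534 values for 67 calls of other pathway genes, 1413 held, 121 lost the call and 0 turned direction.

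Member probes called moved by over 1.5 times in these settings. Array set B alone gave 1 for SU5402 against untreated (2 with all arrays), 2 for Ndst1/2-/- against untreated (1), 2 for Ndst1/2-/- against chlorate (5) and 3 for Ndst1/2-/- against SU5402 (5). The authors' processed values also gave 3 for the last. A replicate block gave 2 for Ndst1/2-/- against untreated, adding Sumf1 (-0.22, limma adjusted p = 0.0353), and with the block Slc35b3 probe 1 was also called for SU5402 against untreated (0.0318) and Ndst1/2-/- against chlorate (0.0266). Same-numbered cultures correlated at -0.01 to 0.19, with 5 of 18 over 0.1. Because culture numbers partly follow the array sets, these values cannot tell a pairing from a set difference. The main model did not pair the cultures. Leaving out single cultures gave 2 to 3 for chlorate against untreated, 1 to 3 for SU5402 against untreated, 1 to 1 for Ndst1/2-/- against untreated, 0 to 0 for SU5402 against chlorate, 3 to 6 for Ndst1/2-/- against chlorate, 3 to 5 for Ndst1/2-/- against SU5402 and 3 to 4 for the F-test. The causes were not tested, and in the fits of 1 set the fewer arrays and the set itself cannot be told apart.

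Over all probes, calls fell to 2260 (set A) and 2146 (set B) after chlorate, against 3803, and to 1535 and 1509 after SU5402, against 3145. SU5402 against chlorate gave 191 with median scaling, 21 in set A, 6 in set B, 119 with these 2 groups alone and 159 to 209 without any 1 of their cultures, against 340. Papss2, Slc26a2 and Sumf1 lay at or near background, which limits what the arrays can show of them.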
